A study of Mus musculus with 57 samples.

Results

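Single mouse T helper 2 (Th2) cells that carried Il2 mRNA were compared with cells in which Il2 was listed at 0. The groups were cut from the measured Il2 level: a cell was Il2-expressing at 10 TPM or more (a level per transcript length, scaled to a fixed total per cell) and Il2-negative at 0 TPM. Of 56 single cells, 40 belonged to the comparison, 23 of them Il2-expressing and 17 Il2-negative. A further 14 cells had Il2 between these limits and were in neither group, and cells T3_2 and T3_5, which had stood apart in earlier results of these data, were left out. Both groups shared every labelled condition. They were CD4+ T cells from the spleen of wild type C57BL/6 mice aged 8 weeks, activated with anti-CD3 and anti-CD28 and cultured for 5 days in total with IL-4 and anti-IFNγ. All cells also received IL-2 protein 2 days into the culture and a second stimulus with both antibodies before they were isolated on microfluidic chips (Fluidigm C1). IL-2 protein was thus in the medium of both groups, and a listed 0 can also be a transcript that was lost in capture, so Il2-negative says only that Il2 was listed at 0. The labels name no separate animals or cultures, so the cells are 1 sample and were compared without tests: fold differences, ranges and the overlap of the groups are given, and no p-value.

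IL-2 is the growth factor of activated T cells. It is made in a short burst after the T cell receptor and CD28 are engaged together, when the transcription factors NFAT, AP-1 and NF-kB act on the Il2 promoter. It signals through a receptor of the chains Il2ra, Il2rb and Il2rg to the kinases Jak1 and Jak3 and the transcription factor STAT5. Fully differentiated Th2 cells are known for Il4, Il5 and Il13 and not mainly for Il2.

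The proximal promoter of Il2 is shown with those of 4 genes from the ends of the comparison, so that the letters around their starts can be read beside their values. Cd9 and Plscr1 had the largest positive differences of all genes, Slamf7 was among the 10 genes higher by 3 or more and held an AP-1 match, and Ddx58 had the largest negative difference. Slamf7 and Ddx58 were chosen after their values were seen. The sequences are from RefSeq (build GRCm38.p6) and run 5′ to 3′ along each gene, from 250 bases before to 50 bases after the annotated start. Il2 lies at chr3:37125905-37126204 on the minus strand, Cd9 at chr6:125494711-125495010 on the minus strand and Plscr1 at chr9:92249944-92250243 on the plus strand. Slamf7 lies at chr1:171648950-171649249 on the minus strand and Ddx58 at chr4:40239776-40240075 on the minus strand. Capitals mark matches on either strand to GGAAA (the core of NFAT sites, TTTCC on the other strand), to TGANTCA (AP-1) and to the interferon-stimulated response element (GAAA, any 2 bases, GAAA).
Il2: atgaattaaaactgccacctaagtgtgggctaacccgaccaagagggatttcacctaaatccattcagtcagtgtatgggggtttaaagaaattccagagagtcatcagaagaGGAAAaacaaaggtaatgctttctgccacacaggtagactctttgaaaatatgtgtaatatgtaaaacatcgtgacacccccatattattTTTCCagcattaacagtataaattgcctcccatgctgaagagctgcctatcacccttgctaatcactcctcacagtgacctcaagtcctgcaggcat
Cd9: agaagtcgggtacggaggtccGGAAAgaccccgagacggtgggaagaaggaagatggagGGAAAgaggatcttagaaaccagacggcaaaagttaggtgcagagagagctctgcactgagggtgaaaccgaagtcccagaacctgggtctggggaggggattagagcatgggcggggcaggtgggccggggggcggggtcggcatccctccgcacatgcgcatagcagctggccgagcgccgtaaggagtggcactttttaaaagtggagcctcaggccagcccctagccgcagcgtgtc
Plscr1: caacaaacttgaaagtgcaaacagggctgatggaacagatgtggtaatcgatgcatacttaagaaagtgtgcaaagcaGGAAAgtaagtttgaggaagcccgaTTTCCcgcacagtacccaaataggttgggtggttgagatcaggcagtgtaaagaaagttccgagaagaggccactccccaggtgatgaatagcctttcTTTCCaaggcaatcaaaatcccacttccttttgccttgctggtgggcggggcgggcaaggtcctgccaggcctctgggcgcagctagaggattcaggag
Slamf7: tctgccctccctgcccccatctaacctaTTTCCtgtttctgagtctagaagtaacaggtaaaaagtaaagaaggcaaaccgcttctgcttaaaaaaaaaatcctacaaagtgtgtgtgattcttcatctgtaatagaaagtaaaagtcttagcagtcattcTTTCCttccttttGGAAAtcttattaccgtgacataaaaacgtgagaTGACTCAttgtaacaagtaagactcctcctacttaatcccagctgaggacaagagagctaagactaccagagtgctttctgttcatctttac
Ddx58: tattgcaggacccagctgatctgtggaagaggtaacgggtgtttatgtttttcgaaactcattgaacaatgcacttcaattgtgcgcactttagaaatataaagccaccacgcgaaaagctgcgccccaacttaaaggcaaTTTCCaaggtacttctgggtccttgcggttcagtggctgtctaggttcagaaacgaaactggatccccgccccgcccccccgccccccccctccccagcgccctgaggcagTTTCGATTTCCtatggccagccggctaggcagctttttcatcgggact

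The Il2 window held 2 matches to GGAAA and none to TGANTCA in these letters. Cd9 held 2 and Plscr1 held 3 matches to GGAAA. Slamf7 held 3 matches to GGAAA and 1 to TGANTCA, in the form TGACTCA. Ddx58 held 2 matches to GGAAA and 1 to the interferon-stimulated response element, and the last of these overlaps one of the GGAAA matches. A match is a stretch of letters and not evidence of binding, and GGAAA is short enough to be in 61.3% of all 32851 promoters in the RefSeq table.

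**Figure D1:**
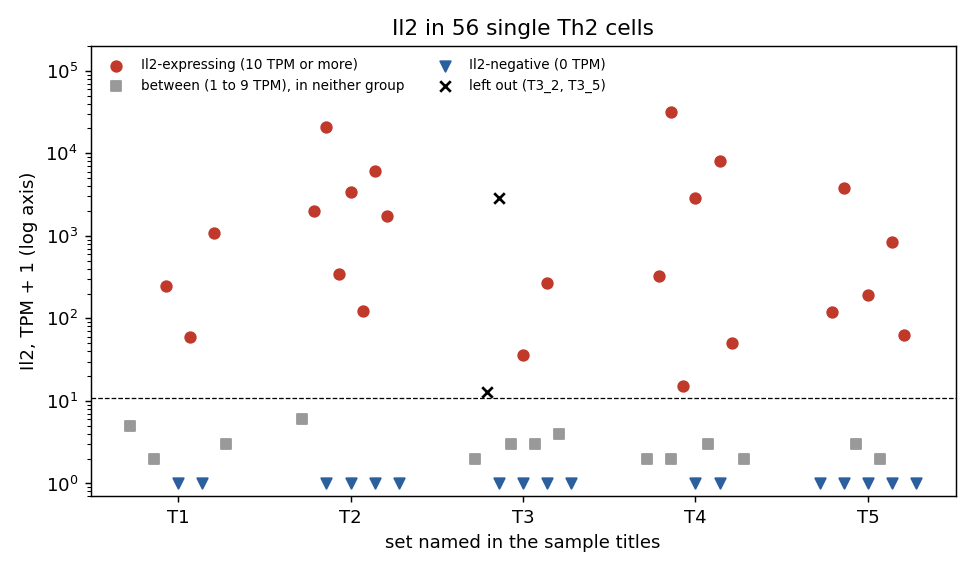
Il2 level in each of the 56 cells, as TPM + 1 on a log axis, by the set number in the sample titles; circles are Il2-expressing cells, squares cells between, triangles Il2-negative cells and crosses the 2 cells left out, and the dashed line is the 10 TPM limit. Il2-expressing cells were present in every set and spanned 14 to 31888 TPM.

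Il2 itself varied widely within the expressing cells, with 14, 342 and 31888 TPM in the lowest, median and highest cell. These values chose the groups and are a description only. The lowest cell inside the limit, T4_10, had 14 TPM and the highest cell just outside it, T2_3, had 5 TPM. Il2 reached 100 TPM in 18 cells and 1000 TPM in 10. The 2 highest cells, T4_1 with 31888 TPM and T2_8 with 20652 TPM, together held 62.2% of all Il2 TPM over the 54 cells, and in T4_1 Il2 was the most abundant transcript. Of the cells left out, T3_5 had 2838 TPM and T3_2 had 12 TPM.

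The share of Il2-expressing cells was 42.6% of 54 cells (exact Clopper-Pearson 95% interval 29.2% to 56.8%, for counting error only). By set it was lowest in T3, at 20%, and highest in T2, at 58.3%, with 37.5% in T1, 41.7% in T5 and 50% in T4. The labels do not explain the sets, which were handled as possible batches. Each set held at least 2 cells of each group: 3 Il2-expressing and 2 Il2-negative cells in T1, 7 and 4 in T2, 2 and 4 in T3, 6 and 2 in T4, and 5 and 5 in T5. The number of genes at 1 TPM or more was 4758 ± 872 in Il2-expressing cells (SD, n = 23), from 2906 to 6983, and 4699 ± 536 in Il2-negative cells (SD, n = 17), from 3710 to 5671. The range of the Il2-negative cells lay inside that of the Il2-expressing cells. By set, the median of Il2-negative cells was lower in T1 (4753.5 against 5502) and T3 (3995 against 4559), and higher in T2, T4 and T5. Whether Il2 mRNA itself was lost in capture cannot be read from this measure and was not tested.

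Both groups carried the Th2 and T cell transcripts that the label names. Gata3, the master regulator of Th2 cells, had 175, 717 and 2178 TPM in the lowest, median and highest Il2-expressing cell, against 221, 981 and 2088 TPM in Il2-negative cells. Cd3d, a chain of the T cell receptor complex, was at 157 TPM or more in every Il2-expressing cell and at 460 TPM or more in every Il2-negative cell. From lists of markers of other cell types, 5 genes were measured. Of the B cell list, Cd74 was at 0 to 250 TPM in Il2-expressing and 0 to 526 TPM in Il2-negative cells. Of the CD8 and NK list, the granule gene Nkg7 was detected in 12 of 23 Il2-expressing cells (0 to 1155 TPM) and 6 of 17 Il2-negative cells (0 to 1654 TPM), and Cd8b1 was listed at 0 in all of them. The mast cell gene Cpa3 reached 7 TPM in Il2-expressing and 160 TPM in Il2-negative cells. The erythroid gene Alas2 was listed at 0 in Il2-expressing cells and detected in 1 Il2-negative cell at 101 TPM. The part of such cells in the differences was not tested.

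Over the 7641 other genes detected at 1 TPM or more in at least 10 of the 54 cells, the measure was the difference of mean log2(TPM + 1), Il2-expressing minus Il2-negative. A difference of 2 or more in size was called. By this rule 98 genes, 1.28% of all, were higher in Il2-expressing cells and 99 genes, 1.3%, were lower, so 2.58% were called in either direction. The median difference over all genes was -0.08, with 45.6% of genes above 0 and 54.4% below 0. The counts given for gene lists below are to be read beside these shares over all genes. The direction was alike in all 5 sets for 39 of the 98 higher genes and 38 of the 99 lower genes, against 5.90% of all genes, although a gene with a large pooled difference more easily has 1 sign in every set. A stricter description kept genes with 1 sign in all 5 sets and at least 1.5 in size without each set in turn, and 31 higher and 31 lower genes met it. With T3_2 and T3_5 kept, both of which then count as Il2-expressing, 82 genes were higher and 91 lower, of which 76 and 86 were among those called without them. With set as a block the counts were 85 and 121, and 68 and 82 of the same genes remained. Without 1 set in turn, 65 to 73 of the 98 higher genes and 65 to 88 of the 99 lower genes were still called.

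**Figure D2:**
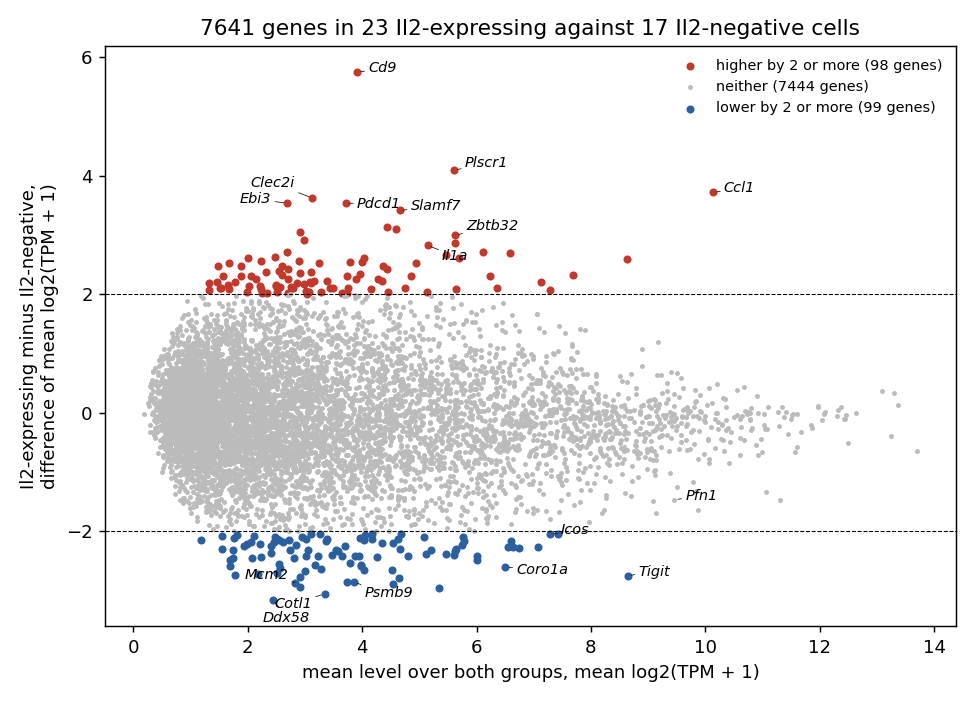
Difference of mean log2(TPM + 1) between 23 Il2-expressing and 17 Il2-negative cells (vertical axis) against the mean level over both groups (horizontal axis, mean log2(TPM + 1)), 1 point per gene, with dashed lines at 2 and -2. Cd9 stands above all other genes at 5.74, and Ddx58 and Cotl1 are the 2 genes below -3.

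The gene that set Il2-expressing cells apart most was Cd9, a tetraspanin of the cell surface that organises membrane proteins. It had 0, 453 and 3187 TPM in the lowest, median and highest Il2-expressing cell, against 0, 0 and 371 TPM in Il2-negative cells. Cd9 was detected in 19 of 23 Il2-expressing cells and 3 of 17 Il2-negative cells, and 12 Il2-expressing cells lay above the highest Il2-negative cell. Its difference was 5.74, and it was positive in every set, from 2.40 in T5 to 9.06 in T2. In 2 sets the sign rested on few cells. Cd9 was detected in 2 of 5 Il2-expressing and 1 of 5 Il2-negative cells in T5, where both medians were 0 TPM. In T3 it was detected in 1 of 2 and 1 of 4. Within sets the difference was 5.46 and with genes detected as a covariate 5.68. Of the 10 cells with 1000 TPM of Il2 or more, 9 had Cd9.

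Plscr1, a phospholipid scramblase of the plasma membrane that interferon also induces, separated the groups with least overlap. It was detected in all 23 Il2-expressing cells, with 8, 217 and 2251 TPM in the lowest, median and highest, and in 11 Il2-negative cells, with 0, 39 and 108 TPM. In 18 Il2-expressing cells Plscr1 was above the highest Il2-negative cell. When every Il2-expressing cell was set against every Il2-negative cell, Plscr1 was higher in the Il2-expressing one in 90.0% of pairs (ties split evenly), the highest share of any gene. Its difference was 4.09, positive in every set, and smallest in T1 at 0.84.

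Other surface molecules were also called, picked here from the named genes and not from a list of their own. Pdcd1, which encodes the inhibitory receptor PD-1, had 0, 118 and 1465 TPM in Il2-expressing cells, against 0, 0 and 772 TPM in Il2-negative cells, a difference of 3.54. It was detected in 18 Il2-expressing and 7 Il2-negative cells, and the groups overlapped through a single Il2-negative cell at 772 TPM and others under 100 TPM. Clec2i, a C-type lectin-like membrane protein, was detected in 18 Il2-expressing cells (median 89 TPM, highest 590 TPM) and 5 Il2-negative cells (median 0 TPM, highest 862 TPM). Its difference was 3.62, but 1.38 as a log2 ratio of mean TPM, and its highest value was in an Il2-negative cell. Cd200, an inhibitory ligand of the immunoglobulin family, had 5, 593 and 2446 TPM in Il2-expressing cells and 0, 133 and 693 TPM in Il2-negative cells, a difference of 2.20. Pdcd1, Clec2i and Cd200 each had 1 sign in all 5 sets, and the Cd200 difference was 1.53 within sets and 1.09 without set T3. Slamf7, a receptor of the SLAM family, had 0, 112 and 1096 TPM in Il2-expressing cells and 0, 3 and 269 TPM in Il2-negative cells, a difference of 3.41 with 1 sign in 4 sets.

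**Figure D3:**
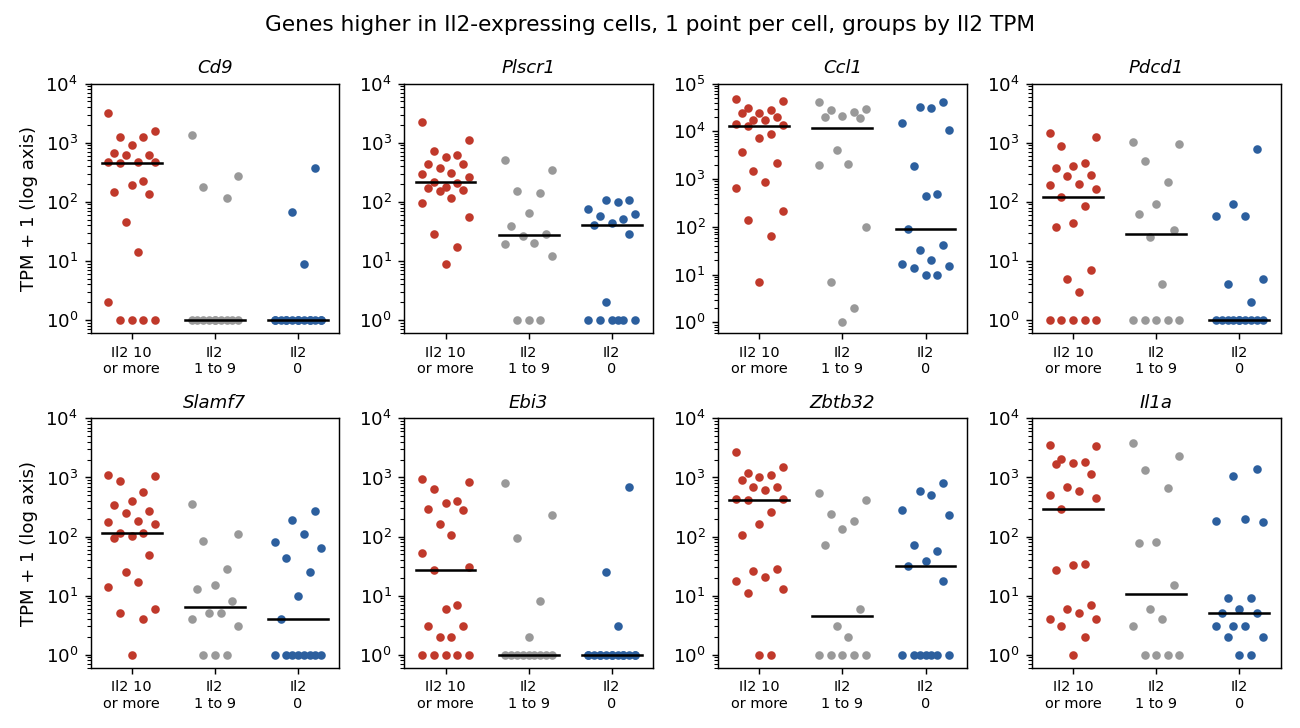
TPM + 1 on a log axis, 1 point per cell, for 8 genes higher in Il2-expressing cells; columns are cells with Il2 at 10 TPM or more, at 1 to 9 TPM and at 0 TPM, and the bar is the median. Cd9, Pdcd1 and Ebi3 had medians of 453, 118 and 26 TPM in Il2-expressing cells and were listed at 0 in most Il2-negative cells, while for Ccl1 the 2 groups covered the same range with different medians.

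Secreted factors other than Il2 were also uneven between the groups. Of the 22 effector cytokines that entered, 4 were higher by 2 or more and 0 lower, against 1.28% and 1.3% of all genes. The list median was 0.15. Il3, a growth factor of mast cells and basophils, had 5, 670 and 80859 TPM in Il2-expressing cells against 1, 9 and 27329 TPM in Il2-negative cells, a difference of 2.32. Tnf, the inflammatory cytokine, was detected in 15 Il2-expressing cells (median 6 TPM, highest 1146 TPM) and 5 Il2-negative cells (median 0 TPM, highest 157 TPM), a difference of 2.32. Fasl, the death ligand, was detected in 18 Il2-expressing cells (median only 2 TPM, highest 1085 TPM) and 5 Il2-negative cells (median 0 TPM, highest 141 TPM), a difference of 2.62. Tnfsf14 (LIGHT), a TNF family ligand, was detected in 20 Il2-expressing and 12 Il2-negative cells with a difference of 2.03. Il3, Tnf, Fasl and Tnfsf14 had 1 sign in 3 or 4 of the 5 sets, and their ranges overlapped between the groups. Without set T2 the Il3 difference was 1.18, without T4 that of Tnf 1.89 and without T5 that of Fasl 1.83, and Tnfsf14 was under the limit without T1, T2 or T5, at 1.65 to 1.88. Il1a, an alarmin of the IL-1 family, was outside the list and had 0, 292 and 3493 TPM in Il2-expressing cells against 0, 4 and 1406 TPM in Il2-negative cells, a difference of 2.82 with 1 sign in all sets and 1.74 without T5.

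None of the Th2 cytokines Il4, Il5 and Il13 was called. Il4 had 0, 441 and 21171 TPM in Il2-expressing cells, against 4, 587 and 26918 TPM in Il2-negative cells, a difference of -1.35. The Il4 difference was 3.10 in set T5 and -2.79 without it, past the limit. The differences were -0.12 for Il13, -0.24 for Il5 and 0.63 for the regulatory cytokine Il10. Il24 was at 1052 TPM in the median Il2-expressing cell and 1475 TPM in the median Il2-negative cell, a difference of -1.06. Csf2 (GM-CSF) had 4, 688 and 52207 TPM in Il2-expressing cells and 60, 129 and 32869 TPM in Il2-negative cells, a difference of 1.07. Of the 13 Th2 regulators and receptors, 0 were called, near the 2.58% of all genes, and the median was -0.30. The receptor of IL-33, Il1rl1, was at 1.43 and the chemokine receptor Ccr4 at -1.79.

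Chemokines had the highest median of all lists, 2.30 over 5 genes, and 3 of the 5 were higher by 2 or more. Ccl1, the ligand of the Th2 receptor Ccr8, had 6, 12955 and 47466 TPM in Il2-expressing cells and 9, 88 and 40400 TPM in Il2-negative cells, a difference of 3.72. Ccl1 was under 100 TPM in 2 Il2-expressing cells and 9 Il2-negative cells, so the groups covered the same range and differed in how many cells were at its lower end. In set T3 the Ccl1 difference was -1.59, the opposite of the other 4 sets. Ccl3, an inflammatory chemokine, was detected in 12 Il2-expressing cells (highest 9504 TPM) and 2 Il2-negative cells (highest 67 TPM), a difference of 2.53. Its neighbour and relative Ccl4 differed by 2.30 but had that sign in only 2 of 5 sets, with medians of 33 TPM in Il2-expressing and 10 TPM in Il2-negative cells. Without set T2 the Ccl4 difference was 0.17, and Ccl1 was the only chemokine called. Ccl1, Ccl4 and Xcl1 alone then passed the filter on detected cells, and the list median was also 0.17. Over all 5 chemokines, Ccl3 and Ccl5 included, the median without T2 was 0.90. Xcl1 differed by -0.52 and Ccl5 by 1.07.

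Other secreted or signalling products, which belong to no list and were picked after their values were seen, were higher too. Ebi3, the subunit shared by IL-27 and IL-35, was detected in 18 Il2-expressing cells (median 26 TPM) and 3 Il2-negative cells (median 0 TPM), a difference of 3.53. Inhba, the chain of activin A, had 1, 2414 and 8840 TPM in Il2-expressing cells and 1, 429 and 2777 TPM in Il2-negative cells, a difference of 2.59, although with 1 sign in only 2 sets and at 1.18 without T5. Cxcl2, a neutrophil chemokine, had medians of 568 TPM in Il2-expressing and 12 TPM in Il2-negative cells, a difference of 2.69. Mmp10, a matrix metalloproteinase, had medians of 363 TPM in Il2-expressing and 5 TPM in Il2-negative cells, a difference of 2.72. Plk2, a polo-like kinase, differed by 3.13 and Traf1, an adaptor of TNF receptors, by 2.48.

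No gene of the IL-2 receptor and its signalling chain was called. With 2.58% of all genes called, 0 of 13 is near that share. Of the 13 genes that entered, 3 lay above 0 and 10 below, and the median was -0.71. Over all genes 45.6% lay above 0 and 54.4% below. Il2ra, the high-affinity chain, had 76, 472 and 2871 TPM in Il2-expressing cells, against 165, 773 and 2184 TPM in Il2-negative cells, a difference of -0.71. Il2rb, the chain that carries the signal, had 0, 11 and 331 TPM in Il2-expressing cells against 0, 65 and 298 TPM in Il2-negative cells, a difference of -1.42. Il2rb differed by 2.35 in set T4 and by -2.40 without it, past the limit, and the common chain Il2rg differed by 0.09. Cish, a STAT5 target that IL-2 induces, had 17, 601 and 2369 TPM in Il2-expressing cells and 431, 1034 and 2317 TPM in Il2-negative cells. Its difference of -1.02 had 1 sign in all sets and did not reach the limit for a call. Stat5a lay on the other side at 0.88, with medians of 115 TPM in Il2-expressing and 107 TPM in Il2-negative cells, and was at 0.20 without set T5.

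Among 32 transcription factors that T cell receptor signals induce or that act on cytokine genes, 2 were higher, 0 lower, and the median was 0.24. Over all genes 1.28% were higher and 1.3% lower. Zbtb32, a zinc finger repressor that binds GATA3, had 0, 422 and 2727 TPM in Il2-expressing cells and 0, 31 and 793 TPM in Il2-negative cells, a difference of 2.99 that was 1.90 without set T2. Relb, an NF-kB subunit, was detected in 21 Il2-expressing cells (median 16 TPM) and 10 Il2-negative cells (median 3 TPM), a difference of 2.10, which was 1.64 without set T5. The NF-kB subunits Rel and Rela, at 1.78 and 1.51, the AP-1 gene Fosb, at 1.77, and Nr4a1, an early gene of receptor signalling, at 1.67 were not called. Without 1 set some passed the limit, with Rel at 2.33 without T5, Rela at 2.51 without T2 and Nr4a1 at 2.08 without T4. The NFAT genes lay close to 0, with 0.54 for Nfatc1, -0.10 for Nfatc3 and -0.18 for Nfatc2, and Irf4 differed by 0.03. Hif1a, the hypoxia factor, was at -1.83, with medians of 39 TPM in Il2-expressing and 124 TPM in Il2-negative cells. Of 40 genes of receptor signalling and its brakes, 1 was higher and 1 lower, with a median of -0.07. These counts are near the shares over all genes, 1.28% and 1.3%. Cd5, a brake on the T cell receptor, was detected in 20 Il2-expressing and 9 Il2-negative cells with a difference of 2.09 that was 1.43 without set T2. Ubash3a, also a brake, was detected in 6 of 23 Il2-expressing and 10 of 17 Il2-negative cells with a difference of -2.72 that was -1.84 without set T4.

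**Figure D4:**
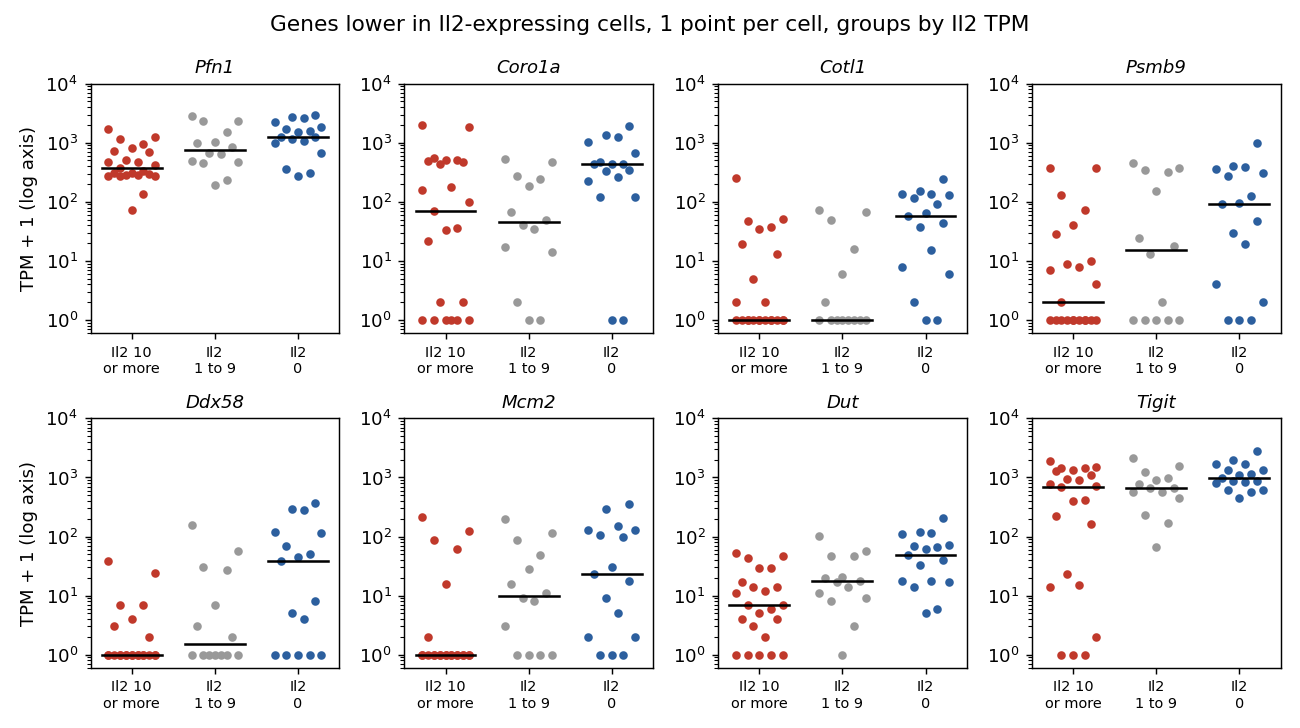
TPM + 1 on a log axis, 1 point per cell, for 8 genes lower in Il2-expressing cells; columns are cells with Il2 at 10 TPM or more, at 1 to 9 TPM and at 0 TPM, and the bar is the median. Pfn1 was detected in every cell at medians of 365 and 1271 TPM in Il2-expressing and Il2-negative cells, a difference of -1.47 that was not called, and the other 7 genes were called.

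The lower genes included several of the actin cytoskeleton. In a list put together after the values were seen, 5 of 50 genes were lower and 1 was higher by 2 or more. Of the 50, 37 lay below 0, and the median was -0.39. Over all genes 1.3% were lower, 1.28% higher and 54.4% below 0. Cotl1 (coactosin-like, an actin binding protein) was detected in 10 of 23 Il2-expressing cells (median 0 TPM) and 15 of 17 Il2-negative cells (median 57 TPM), a difference of -3.05. Coro1b and Coro1a, coronins that control branched actin, differed by -2.89 and -2.60, and Cnn2, a calponin, by -2.63, which was -1.45 without set T2. Coro1b was detected in 13 of 23 Il2-expressing and 15 of 17 Il2-negative cells. As a log2 ratio of mean TPM the Coro1b difference was only -0.31. Without T4 the Coro1a difference was -1.75. Coro1a had 0, 70 and 2012 TPM in Il2-expressing cells and 0, 429 and 1898 TPM in Il2-negative cells. Pfn1 (profilin, which feeds actin monomers to filaments) had 73, 365 and 1700 TPM in Il2-expressing cells and 276, 1271 and 2962 TPM in Il2-negative cells. Its difference of -1.47 had 1 sign in all 5 sets, and Pfn1 was higher in the Il2-expressing cell in only 16.6% of cell pairs. Cfl1 (cofilin) differed by -0.69 and Actb by -0.65, both also lower in the median Il2-expressing cell.

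The 2 forms of 1 Arp2/3 subunit went opposite ways. Arpc1a had 0, 161 and 898 TPM in Il2-expressing cells against 0, 4 and 295 TPM in Il2-negative cells, a difference of 3.10. Arpc1b had 0, 22 and 440 TPM in Il2-expressing cells against 1, 137 and 482 TPM in Il2-negative cells, a difference of -2.37. Both had 1 sign in all 5 sets, although the Arpc1a difference was only 0.01 in T3. The pair was noticed after the values were seen.

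Innate antiviral and antigen processing genes were also among the lower genes. Ddx58, which encodes the RNA sensor RIG-I, was detected in 7 of 23 Il2-expressing cells (highest 38 TPM) and 12 of 17 Il2-negative cells (median 38 TPM, highest 370 TPM), a difference of -3.15. The Ddx58 difference was 2.03 in set T1, the opposite of the other 4 sets. Of the 14 interferon response genes that entered, 13 lay below 0, against 54.4% of all genes. The list median was -1.20, the lowest of all lists. Within sets it was -1.28. Only Irf1, an interferon-induced transcription factor, was called, at -2.25, with medians of 0 TPM in Il2-expressing and 53 TPM in Il2-negative cells. Without T1, T2 or T3 the Irf1 difference was -1.83 to -1.96 and not called. Bst2 (tetherin) was just short of a call, with medians of 67 TPM in Il2-expressing and 211 TPM in Il2-negative cells. Irf9 was at -1.87 and Irf7 at -1.44, neither of them called. Plscr1, which interferon induces in other cells, went the opposite way, as described above.

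The immunoproteasome, the form of the proteasome that makes peptides for MHC class I, was uneven as well. Psmb9, a catalytic subunit of it, had 0, 1 and 376 TPM in Il2-expressing cells, against 0, 92 and 994 TPM in Il2-negative cells, a difference of -2.86. Psmb10, another such subunit, differed by -2.39, and Psmb8, the third, by -1.56 without a call. Without set T5 the Psmb10 difference was -1.89. In the list of 11 immunoproteasome and class I genes, made after the values were seen, 2 were lower, 0 higher and the median was -0.39. Among 14 constitutive core subunits 0 were called, near the 2.58% of all genes, and the median was -0.09. Psmd3, a lid subunit of the proteasome, was lower by a difference of -2.77, or -1.83 without set T5, with medians of 0 TPM in Il2-expressing and 21 TPM in Il2-negative cells. Psmg2, a chaperone of proteasome assembly, was higher, with medians of 321 TPM in Il2-expressing and 16 TPM in Il2-negative cells and a difference of 2.86.

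Several genes of nucleotide supply and DNA replication were lower in Il2-expressing cells. Mcm2, a subunit of the replicative helicase, was detected in 6 of 23 Il2-expressing and 14 of 17 Il2-negative cells, a difference of -2.86. Dut, which clears dUTP, had 0, 6 and 51 TPM in Il2-expressing cells and 4, 47 and 204 TPM in Il2-negative cells, a difference of -2.56. Rrm1 and Rrm2, the subunits of ribonucleotide reductase, differed by -2.19 and -2.10, and Rfc2, of the clamp loader, by -2.13. Without set T4 these 3 differences were -1.67, -1.87 and -1.45, under the limit. Rrm2 differed by 4.07 in set T3, the opposite direction, and by -1.55 without T1. Mcm2, Rrm1, Rrm2 and Rfc2 were the 4 genes called lower of 26 in the G1/S list, against 1.3% of all genes. Of the 26, 9 lay above 0, against 45.6% of all genes, and the median was -0.50. Other members pointed the other way without a call, with Mcm5 at 0.83 and the uracil glycosylase Ung at 1.68. The summed TPM of the G1/S list was not lower in the median Il2-expressing cell. It was 98, 2823 and 6445 in the lowest, median and highest Il2-expressing cell, against 511, 2461 and 10017 in Il2-negative cells. In the G2/M list, 32 of 35 genes lay below 0, against 54.4% of all genes, and the median was -0.64. In that list 1 gene, Cdca3, was called at -2.08, a call lost without T4 (-1.90) or T5 (-1.56). The summed TPM of the G2/M list was 59, 673 and 9625 in the lowest, median and highest Il2-expressing cell, against 69, 2620 and 6890 in Il2-negative cells, so both groups held cells at each end.

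Receptors and T cell state genes made up another part of the lower genes. Tigit, an inhibitory receptor, had 0, 690 and 1883 TPM in Il2-expressing cells and 455, 968 and 2842 TPM in Il2-negative cells, a difference of -2.75. Tigit lay under the lowest Il2-negative cell in 11 Il2-expressing cells, but the sign held in only 3 of 5 sets, with -5.30 in T4 and 0.37 in T1, and without T4 the difference was -1.72. Icos, a costimulatory receptor, had 0, 200 and 2604 TPM in Il2-expressing cells and 1, 396 and 1749 TPM in Il2-negative cells, a difference of -2.05 with 1 sign in all sets, and -1.61 without T4. Over the 18 costimulatory and inhibitory receptors, 2 were higher, 2 lower and the median was 0.14. Lef1, a transcription factor of naive T cells, had medians of 7 TPM in Il2-expressing and 85 TPM in Il2-negative cells, a difference of -2.41. It was the 1 gene called of 7 in the list of naive T cell and homing genes, whose median was -0.56. Rasgrp1, which couples the receptor to Ras, differed by -2.42, and Gnai2, a G protein subunit used by chemokine receptors, also by -2.42. Kidins220, a scaffold at the T cell receptor, was detected in 3 of 23 Il2-expressing and 13 of 17 Il2-negative cells, a difference of -2.58.

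**Figure D5:**
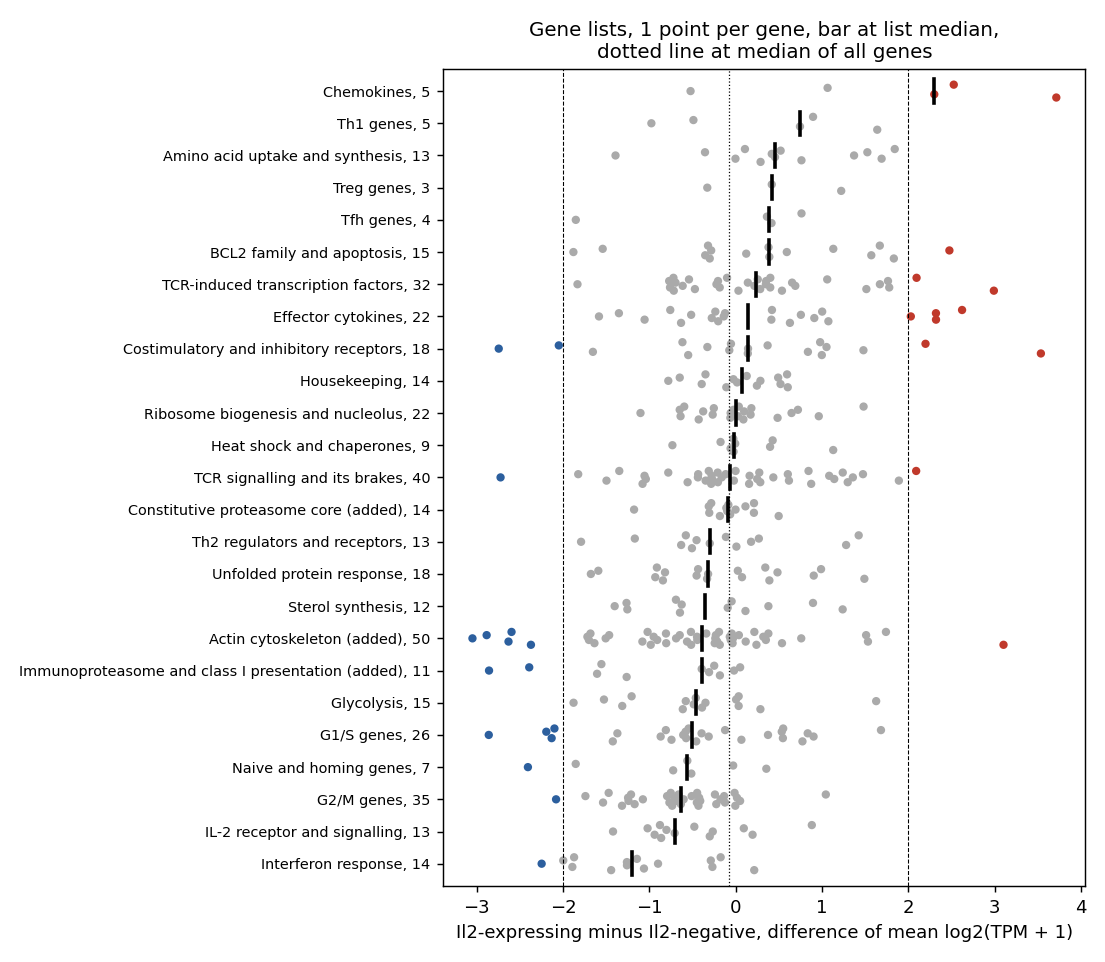
Difference of mean log2(TPM + 1), Il2-expressing minus Il2-negative cells (horizontal axis), with 1 point per gene and 1 line per gene list, where the number after each name is the genes that entered; bars are list medians, dashed lines the limits of 2 and -2 and the dotted line the median of all genes. Chemokines lie highest, with a median of 2.30 that was 0.17 without set T2, and interferon response genes lowest, with -1.20.

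Lists that describe growth and general cell state held 0 called genes. With 2.58% of all genes called, 0 is near that share in lists of 9 to 22 genes. The medians were 0.07 for 14 housekeeping genes, 0.00 for 22 genes of ribosome biogenesis, -0.02 for 9 heat shock genes and -0.33 for 18 genes of the unfolded protein response. Glycolysis (15 genes) had a median of -0.46 and sterol synthesis (12 genes) of -0.36. Amino acid uptake and synthesis had a median of 0.46, with 10 of 13 genes above 0, against 45.6% of all genes. Asns, which makes asparagine, was the member farthest from 0, at 1.84, but its difference was -5.58 in set T5, 4.43 without T5 and 0.43 without T2. Outside the list, Aldh18a1, an enzyme of proline synthesis, was detected in 19 Il2-expressing and 4 Il2-negative cells with a difference of 3.05 and 1 sign in all sets. Of the BCL2 family and apoptosis list, 1 of 15 genes was called. Bid, which links death receptors to mitochondria, was detected in 19 Il2-expressing and 5 Il2-negative cells with a difference of 2.48. Lists of Th1, Treg and Tfh genes held 5, 3 and 4 genes with medians of 0.75, 0.42 and 0.39, 0 of them called. Within sets the Th1 and Treg medians turned to -0.36 and -0.05.

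The 14 cells with Il2 at 1 to 5 TPM were in neither mean that called the genes, although they counted in the filter on detected cells, and their means lay mostly between the groups. For 75 of the 98 higher genes their mean was between those of the Il2-expressing and the Il2-negative cells. It was nearer to the Il2-negative cells for 59 and nearer to the Il2-expressing cells for 39. For the lower genes the mean of these cells lay between the groups for 76 of 99, but nearer to the Il2-expressing cells for 67. Over the higher genes the median difference from Il2-negative cells was 2.28 for Il2-expressing cells and 1.04 for the cells between. Over the lower genes it was -2.31 for Il2-expressing cells and -1.46 for the cells between, and over all genes it was -0.14 for the cells between. Since the same Il2-negative cells enter both differences, part of this order is fixed by construction. Cd9 was detected in 4 of these 14 cells, Pdcd1 in 9 and Plscr1 in 11, and the median Ccl1 level was 11662 TPM, close to that of Il2-expressing cells.

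No single cell carried the whole pattern. Of the 15 genes with the largest positive differences among those that met the stricter rule, Il2-expressing cells had 3, 11 and 14 at 10 TPM or more in the lowest, median and highest cell, cells between had 3, 8.5 and 11, and Il2-negative cells had 0, 4 and 9. Of the 15 most negative such genes the numbers were 1, 3 and 7 in Il2-expressing cells, 2, 5.5 and 11 in cells between and 7, 10 and 13 in Il2-negative cells. The ranges overlapped in the first set of genes and met at 7 in the second. These genes were picked on the same cells, so the separation is a description.

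The genes whose level over the 54 cells was ordered most like Il2 were Cd9, Plscr1, Antxr2, Fasl and Clec2i, with Spearman's rho of 0.63, 0.56, 0.53, 0.51 and 0.48. Over the 23 Il2-expressing cells alone the values were 0.42, 0.21, 0.38, 0.51 and 0.18, with Fasl alike in both. The 5 genes were picked as the highest over the 54 cells, and the 23 cells span less of the Il2 range. A fall is therefore partly fixed by construction. Zbtb32 and Gramd1b had 0.61 each over the 23 cells, above Fasl, and 0.43 and 0.45 over the 54. Antxr2, a receptor for collagen fragments and anthrax toxin, was detected in 14 Il2-expressing and 2 Il2-negative cells. Antxr2 and Fasl each had a median of only 2 TPM in Il2-expressing cells. The most opposite order was that of Rpgrip1, Pfn1, Mcm2, Dut and Gpx4, with rho from -0.54 to -0.50. Over the Il2-expressing cells alone their values were 0.06, -0.13, -0.32, 0.02 and -0.47, so the opposite order was not seen there for Rpgrip1 and Dut. These 5 genes were also picked over the 54 cells, with the same limit. Rpgrip1, known as a protein of the photoreceptor cilium, had 20, 51 and 167 TPM in Il2-expressing cells and 57, 131 and 266 TPM in Il2-negative cells, and it was higher in the Il2-expressing cell in 12.4% of cell pairs, the lowest share of any gene. Its difference of -1.31 was under the limit for a call. Gpx4, which protects membranes from lipid peroxides, had medians of 2 TPM in Il2-expressing and 42 TPM in Il2-negative cells, a difference of -2.58. The cells are 1 sample and their depth is unknown, so these values carry no p.

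The genes near Il2 on its chromosome that were measured had low levels in both groups. Adad1, another neighbour, was not analysed here. Il21, a cytokine of follicular helper cells, was detected in 2 Il2-expressing cells, 0 cells between and 1 Il2-negative cell, with 21 TPM in the highest Il2-expressing and 20 TPM in the Il2-negative cell. On the other side 4932438A13Rik was detected in 19 Il2-expressing and 15 Il2-negative cells with a difference of -0.36.

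Motif matches were counted over the promoters of all genes that entered. At least 1 match to TGANTCA was in the windows of 10 of the 76 higher genes with a promoter in the table (13.2%), 6 of 84 lower genes (7.14%) and 5.69% of all 6133 genes that entered and matched. GGAAA was in 72.4% of the higher genes, 59.5% of the lower genes and 64.4% of all that entered. The interferon-stimulated response element was in 3 higher genes, 4 lower genes and 3.68% of all. A form of the NF-kB site (GGGA, any base, TTTCC) was in 1 higher gene, 0 lower genes and 0.505% of all. In the last 2 motifs a group holds too few matches to be read as a difference. The shares for TGANTCA and GGAAA were not tested either, and that of TGANTCA in the higher genes rests on 10 genes. Counted per promoter and not per gene, TGANTCA was in 7.81% of all 32851 promoters. Every match to this NF-kB site contains TTTCC, so its window also counts under GGAAA.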

How the data were processed

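RNA was measured in 56 single cells. The deposited values are a score: TPM rounded by the authors to integers, in a table of 10565 genes whose columns sum to 999202 to 999914. The submitters' processing notes name Bowtie 0.12.2, Cufflinks, FastQC and the build mm9, without the role of each. Depth cannot be read from TPM, so the depth per cell is unknown and no counting error is attached to a level. Symbols were printed as RefSeq (GRCm38.p6) spells them: 9357 were current names, 1086 older names and 122 unmatched. Genes entered at 1 TPM or more in at least 10 of 54 cells, on a log2(TPM + 1) scale. The 1 added makes ratios between low levels smaller, and the number of calls depended on it. With 10 TPM added in its place, 11 genes were called higher and 1 lower. No doublet caller was run.

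The groups, the gene lists, the settings and the alternatives were chosen with earlier results of these data known, and 3 lists (actin, immunoproteasome, constitutive proteasome) after the values were seen. Genes were named as members of the lists on IL-2 signalling, cytokines, chemokines and induced transcription factors, as called or most extreme members of other lists (up to 4 each), as the 15 highest and 15 lowest that kept sign and size over sets, as the 5 highest and lowest in rho with Il2, and as its neighbours. Other names were chosen after their values were seen. The calculation was tested on simulated data and used Python 3.11.15, numpy 2.4.6, pandas 2.3.3 and scipy 1.17.1, and figures matplotlib 3.10.9. A sample of pooled cells was not analysed here.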

Additional observations from a re-analysis of the deposited data

How the results depend on the processing

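Cells are 1 sample, so the counts describe these libraries only. Against 98 higher and 99 lower genes, a pseudocount of 10 TPM gave 11 and 1, a limit of 1.5 gave 279 and 344, a limit of 3 gave 10 and 2, and log2 ratios of mean TPM gave 427 and 386. Taking Il2 at 100 TPM or more as expressing gave 155 higher genes, taking 1 TPM or more gave 44, and counting all cells under 10 TPM as negative gave 24 lower genes. Leaving out set T1 gave 167 lower genes, T2 gave 155 higher and 165 lower, T3 gave 220 lower, T4 gave 151 higher, and T5 gave 208 higher and 163 lower. The cause of these shifts was not tested, beyond the smaller groups when a set is left out. Leaving out each cell in turn gave 83 to 114 higher and 92 to 132 lower genes. Rescaling by the median ratio gave 102 and 88 genes, genes detected as a covariate 88 and 113, set as a block 85 and 121, and leaving out the 2 cells with fewest and the 2 with most genes, an alternative chosen after seeing the data, 115 and 126. Fewer of the same genes were still called in some settings. Of the 98 and 99 genes, log2 ratios of mean TPM kept 49 and 34. Counting all cells under 10 TPM as negative kept 46 and 22, and taking Il2 at 1 TPM or more kept 39 and 54. At least 96 and 96 kept their sign under each of these settings that tested them. The genes were picked for a large difference on mostly the same cells, so a kept sign was nearly fixed beforehand. For the named genes 0 of 2569 values changed sign with a call, and 5 moved by more than the spread between cells. Both counts are lenient. Only genes called in the main comparison could count as changing sign, though values of the others are among the 2569. Irf4, which was not called, changed sign in 8 of 19 settings. The spread between cells is wide, so Ccl4 did not count as moved at 0.17 without set T2, against 2.30. No paired analysis was possible because cells of a set are not matched one to one between the groups, and the set block above is the nearest fit.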
